A study of Mus musculus with 22 samples.

Results

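IOX1 and MS023 are 2 small molecules whose effects on mouse embryonic stem cells (ESCs) were set against each other directly: 2 libraries labelled IOX1 against 2 libraries labelled MS023, or 4 of the 22 RNA-seq libraries of the series. The 4 libraries were picked by their treatment labels. All libraries came from E14, an established mouse ESC line, and were prepared from oligo-dT enriched RNA. The other 9 groups, each with 2 libraries, were treated with 8 further compounds (Bromosporine, CPTH2, Chaetocin, DZNep, Garcinol, OICR, UNC0379 and Valproate) or were labelled NC. No label gives the dose or the length of a treatment, the vehicle, or what NC stands for. Nothing says that the 2 libraries of a group came from separate cultures. The p-values therefore rest on the spread between libraries of the same group, estimated over all 11 groups, and that spread may be technical.

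IOX1 is known as a broad inhibitor of oxygenases that use 2-oxoglutarate and iron, among them the JmjC histone demethylases, the prolyl hydroxylases that mark hypoxia-inducible factor for destruction, and the collagen hydroxylases. MS023 is known as an inhibitor of the type I protein arginine methyltransferases, the enzymes that make asymmetric dimethylarginine on histones and on many RNA-binding proteins. Electrophiles and oxidants release the transcription factor NRF2 from its inhibitor KEAP1, and NRF2 then switches on genes of quinone reduction, glutathione and thioredoxin. The integrated stress response is a second stress pathway: when translation initiation is curbed, ATF4 is made, and it drives the C/EBP-family gene Ddit3 (CHOP), amino acid genes and Ppp1r15a, which turns the response off again.

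The values are read counts brought to the same distribution in every library by full quantile normalisation, so that the median was 409 and the maximum 221616 in every library, and depth can no longer be read from them. The ESC marker list (8 genes, Pou5f1, Sox2 and Nanog among them) was present in all 4 libraries: its summed level was 219228 and 212525 with IOX1, 170019 and 156483 with MS023, 180396 and 191444 in NC, and 178523 to 271442 in the 18 libraries of the other groups. Both MS023 sums were below every other library, and the part of this in the results was not tested. The summed fibroblast markers (8 genes) were at 390 and 730 with IOX1 and 1151 and 397 with MS023, with 2 of the 8 at 0 in all 4 libraries, and 5 of the 6 primitive endoderm markers were in the table, with sums of 283 and 327 against 231 and 374. IOX1 replicate 1 was high in some of the RNAs looked at for RNA quality. The ribosomal RNA copy Rn18s-rs5 was at 53919 and 21258 with IOX1, 15340 and 11648 with MS023, and 5714 to 32036 in the other groups. The protein-coding gene Lars2 was at 39193 and 6061 against 7310 and 3392 (2950 to 41831 in the other groups, so another library was higher). The nuclear RNA Malat1 was at 36708 and 3966 against 15635 and 6436 (1718 to 33822). The mitochondrial ribosomal RNA mt-Rnr2 hardly differed between the compounds (IOX1 minus MS023 -0.00747 on the log2(value + 1) scale). The correlation of log2 values across genes was 0.923 between the IOX1 libraries, 0.945 between the MS023 libraries, and 0.935 between IOX1 replicate 1 and MS023 replicate 1. Some genes switched between 0 and over 100 from 1 library to the other of the same compound, 170 genes with IOX1 and 113 with MS023.

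Of 17275 genes tested, 804 differed between the compounds (4.65% of the genes tested): 388 were higher with IOX1 (2.25%) and 416 were higher with MS023 (2.41%). A call required both a fold over 2 and an adjusted p (Benjamini-Hochberg, over every gene tested) under 0.05, from limma on log2(value + 1) with the replicate number as a block and the spread estimated from all 11 groups. All differences below are IOX1 minus MS023 on that scale, which understates the change of low genes, and a negative value means higher with MS023. The adjusted p alone was passed by 2624 genes (15.2%), 1360 higher with IOX1 (7.87%) and 1264 higher with MS023 (7.32%). The 2 IOX1 libraries did not overlap the 2 MS023 libraries in 788 of the 804 called genes and in 43.8% of all genes tested. Among the calls, 51 genes had a 0 in at least 1 of the 4 libraries. The ribosomal RNA copy Rn18s-rs5 was among the calls higher with IOX1 (1.34). That call was lost when any 1 of the 4 libraries was left out, with differences of 1.04 to 1.64. The number of calls rests on the shared estimate of the spread and on the block: it was 369 without the block, 10 with the IOX1, MS023 and NC libraries alone, and 0 with the 4 libraries and the block, where 1 residual degree of freedom remained and 3284 genes had an unadjusted p under 0.05. It fell to 466 without IOX1 replicate 1 and to 518 without MS023 replicate 2.

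MS023 was more often the compound that stood away from the rest of the series. Among the 388 genes higher with IOX1, the MS023 mean lay further than the IOX1 mean from the other 9 groups in 310, MS023 was the lowest of all 11 groups in 241, and IOX1 was the highest in 101. Among the 416 genes higher with MS023, MS023 lay further out in 259 and IOX1 in 157, with MS023 the highest of the 11 groups in 212 and IOX1 the lowest in 106. The comparisons with NC, which share the NC libraries, were smaller: 78 genes were higher and 139 lower with IOX1 than in NC (0.452% and 0.805%), and 200 were higher and 284 lower with MS023 (1.16% and 1.64%). Of the genes higher with IOX1 than with MS023, 171 were also called in MS023 against NC, 25 in IOX1 against NC, and 194 in neither. For those higher with MS023 the numbers were 102, 80 and 240.

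**Figure D1:**
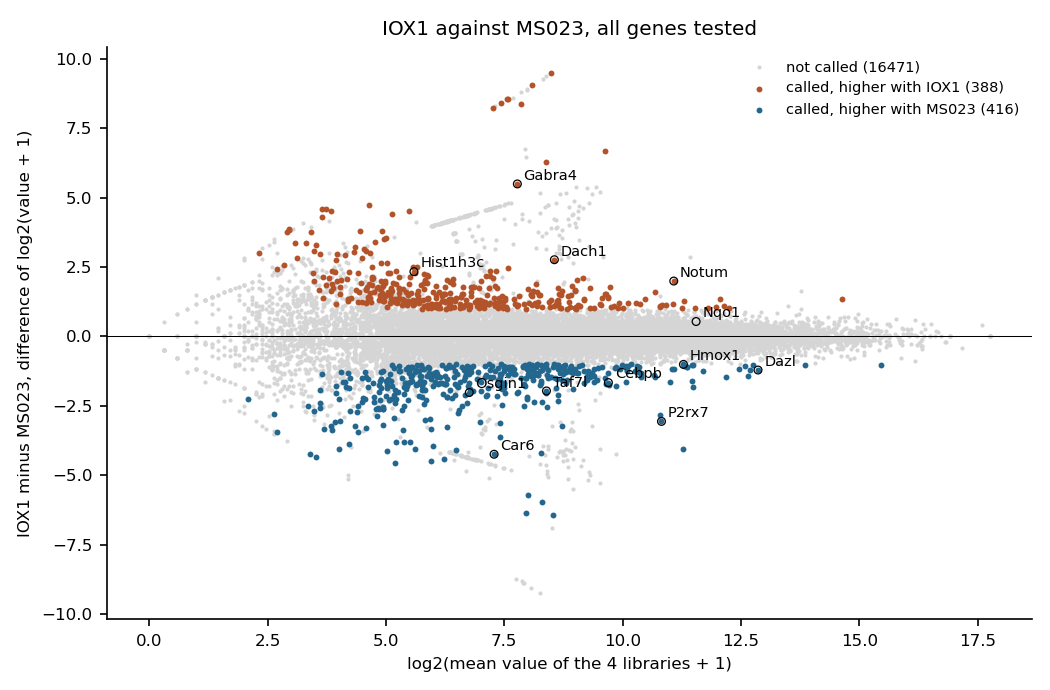
Difference between IOX1 and MS023, on the log2(value + 1) scale, against the log2 mean value of the 4 libraries, with 1 point for each of the 17275 genes tested. The 388 called genes higher with IOX1 lie above the line at 0 and the 416 higher with MS023 below it; streaks of grey points far from 0 are genes at 0 in some libraries.

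The 12 largest called differences toward MS023, among genes above 0 in all 22 libraries with a mean of at least 100 in the higher compound and no overlap between the compounds, predicted and receptor-family genes aside, included Car6, Pla2g2e and P2rx7, and MS023 had the highest mean of the 11 groups in 9 of the 12. Car6, a secreted carbonic anhydrase (chr4:150187015-150201332, mm10, minus strand), was at 16 and 13 with IOX1, 247 and 344 with MS023, and 41 and 46 in NC. Both MS023 libraries were above all 20 others, which reached 106 at most (difference -4.24, SE 0.35, adjusted p = 6.04e-05, limma). Pla2g2e, a secreted phospholipase, was at 9 and 8 against 111 and 227, with 39 the highest value elsewhere (-4.07, adjusted p = 0.000377). Tuba8, an alpha-tubulin, was at 9 and 5 against 107 and 129, and NC held 47 and 26 (-3.94, adjusted p = 6.04e-05). Adad2, a testis gene with an adenosine deaminase domain, was at 17 and 35 against 274 and 354, and NC at 143 and 97 lay between the compounds (-3.62, adjusted p = 0.000145).

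P2rx7, an ATP-gated ion channel (chr5:122643911-122691432, plus strand), was at 495 and 297 with IOX1, 3446 and 2991 with MS023, and 332 and 272 in NC, although another library of the series reached 3848 (-3.06, SE 0.48, adjusted p = 0.00141). Dgat2, which completes triglycerides, was at 20 and 49 against 182 and 425 (-3.11, adjusted p = 0.00109). Stra8, the retinoic acid-induced gene of meiotic entry, varied strongly within both compounds, at 139 and 929 against 1472 and 4562 (-2.84, adjusted p = 0.00416), and missed the threshold without IOX1 replicate 1 (adjusted p = 0.0537).

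IOX1 had the lowest mean of the 11 groups in Adad2, Pramel6, Snai1 and Ndufa4l2. Pramel6, a PRAME-family gene active in early embryos, was at 6 and 28 with IOX1, 108 and 168 with MS023, and 97 and 110 in NC (-3.25, adjusted p = 0.000234). Snai1, a repressor of epithelial genes, was at 2 and 35 against 102 and 104, with NC at 20 and 28 (-3.32, adjusted p = 0.00676), and its difference was -1.71 without IOX1 replicate 1. Ndufa4l2, a hypoxia-linked relative of a respiratory chain subunit, was at 13 and 34 against 104 and 211, and NC held 261 and 124 (-2.75, adjusted p = 0.0414). Fstl3, an activin-binding protein, was at 17 and 30 against 99 and 221, with NC at 120 and 66 (-2.66, adjusted p = 0.0273). Ndufa4l2 and Fstl3 kept their differences but not their calls when any 1 of the 4 libraries was left out, with adjusted p of 0.0762 to 0.246 for Ndufa4l2 and 0.0817 to 0.134 for Fstl3. Exons of Ndufa4l2 overlap Shmt2 on the opposite strand and those of Fstl3 overlap Prss57, and no source says that reads were counted by strand.

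Toward IOX1, the 12 largest called differences under the same limits included the secreted WNT regulators Notum and Sfrp2, and in 8 of the 12 the MS023 mean lay further than the IOX1 mean from the other 9 groups. Notum, an extracellular enzyme that removes the lipid from WNT proteins (chr11:120653788-120661175, minus strand, with Notumos on the opposite strand), was at 2961 and 3966 with IOX1, 923 and 803 with MS023, and 1541 and 2432 in NC. IOX1 had the highest and MS023 the lowest mean of the 11 groups (difference 1.99, SE 0.22, adjusted p = 0.000211). Sfrp2, a secreted frizzled-related WNT antagonist, was at 232 and 260 against 41 and 76, with NC at 340 and 253 (2.12, adjusted p = 0.000889). Prom1, the membrane protein CD133 of many stem cells, was at 317 and 168 against 55 and 45, with NC at 177 and 138 (2.19, SE 0.20, adjusted p = 6.58e-05). Penk, the enkephalin precursor, was at 135 and 140 against 29 and 36, with NC at 113 and 123 (2.06, adjusted p = 0.000149). For Sfrp2 and Penk the IOX1 libraries lay within the range of the other groups and both MS023 libraries were at or near its lower end.

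Pax6, a homeobox regulator of eye and neural development, was at 77 and 173 with IOX1, 22 and 35 with MS023, and 48 and 52 in NC (2.02, adjusted p = 0.0051). Without IOX1 replicate 2 its difference was 1.78 with an adjusted p of 0.0515. Cldn5, a claudin of tight junctions, was at 282 and 212 against 46 and 47, and both IOX1 libraries were above the highest value elsewhere, 182 (2.37, adjusted p = 0.000907). Lrrn2, a leucine-rich repeat protein of neurons, was at 167 and 377 against 57 and 41 (2.35, adjusted p = 0.00103) and Slco4a1, an organic anion transporter, at 524 and 135 against 72 and 32 (2.44, adjusted p = 0.00179). In Lrrn2 and Slco4a1 the IOX1 libraries stood apart from each other, but neither fell into the MS023 range. Slco4a1 lost its call without the replicate block (adjusted p = 0.172, limma).

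The largest fitted difference toward IOX1 among these 12 also had a wide error. Gabra4, a GABA receptor subunit (chr5:71569749-71658308, minus strand), was at 376 and 480 with IOX1, 8 and 9 with MS023, and 10 and 11 in NC. Elsewhere it ran from 6 to 727 with a median of 10.5, so some libraries of other groups had it as high as IOX1 (5.49, SE 1.5, adjusted p = 0.0309). Dach1, a transcriptional cofactor, was at 531 and 783 against 84 and 106, and ran from 56 to 910 in the other groups (2.76, SE 0.85, adjusted p = 0.0453). Neither kept its call when any 1 of the 4 libraries was left out, with adjusted p of 0.0969 to 0.153 for Gabra4 and 0.125 to 0.181 for Dach1. Mid1-ps1, a pseudogene that shared 97.5% of its 31-base stretches with other genes' transcripts, was at 365 and 103 against 48 and 37 (2.18, adjusted p = 0.0179), and its difference was 1.23 without IOX1 replicate 1 (adjusted p = 0.202). It also missed the threshold without MS023 replicate 1 (0.0544) or MS023 replicate 2 (0.107).

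**Figure D2:**
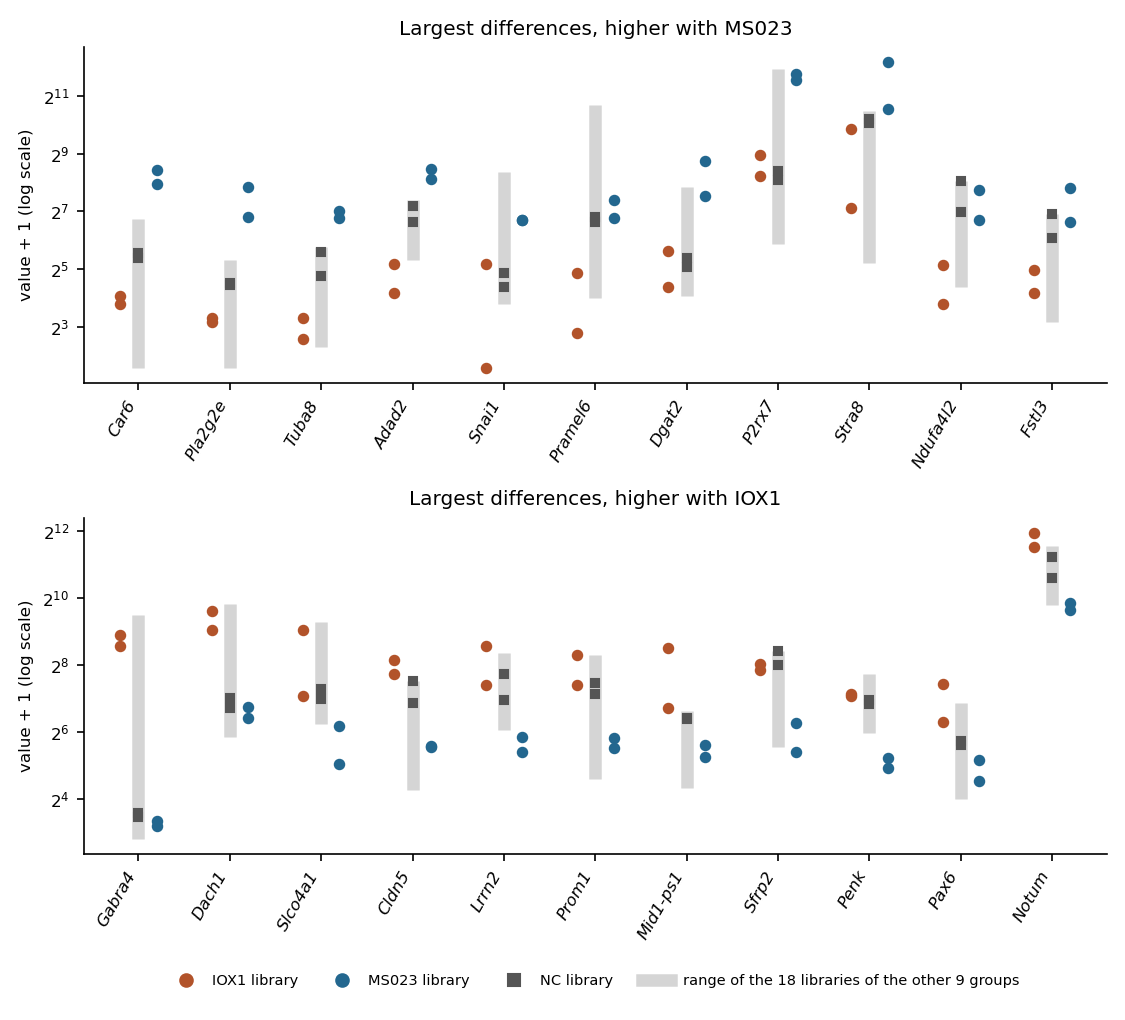
Values, plus 1 and on a log scale, of 11 named genes in each direction, from the 12 with the largest called difference. Circles are the 2 libraries of IOX1 (brown) and MS023 (blue), squares are the 2 NC libraries, and the grey bars span the 18 libraries of the other 9 groups, NC included. Car6 and Pla2g2e with MS023 lie above the bars, and Notum is above its bar with 1 IOX1 library and below it with 1 MS023 library.

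Of the 32 NRF2 targets, 3 were called up against NC with IOX1 (beside 0.452% of all genes tested) and 7 with MS023 (beside 1.16%). None was called down. Between the compounds, 2 were called higher with IOX1 and 2 higher with MS023 (12.5% of the list, against 4.65% of all genes tested). The adjusted p alone was passed by 8 (beside 15.2% of all genes tested), 6 of them toward MS023. The median difference between the compounds was 0.01, beside -0.00 over all genes tested. Nqo1, the quinone reductase often used to read NRF2 activity (chr8:107388225-107403206, minus strand), was at 3870 and 3240 with IOX1, 2534 and 2357 with MS023, and 728 and 872 in NC. No other library of the series passed 1430. Against NC it rose by 2.15 with IOX1 (adjusted p = 0.001) and by 1.62 with MS023 (adjusted p = 0.0016), and the difference between the compounds missed the threshold (0.53, 95% interval 0.05 to 1.02, adjusted p = 0.133). Cbr3, a carbonyl reductase, was at 2742 and 2101 with IOX1 and 1918 and 1478 with MS023, against 659 and 695 in NC. Another library of the series reached 3189 for Cbr3. Ptgr1, which reduces prostaglandins and reactive aldehydes, was at 2991 and 2608 and at 3870 and 3644, against 855 and 918. Both were called against NC with each compound, and neither passed between the compounds (adjusted p = 0.0753 and 0.0669).

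Of the glutathione and thioredoxin genes, Gclc, Gclm, Txnrd1 and Gsr gave differences near 0. Gclc, the catalytic subunit of glutathione synthesis, was at 1993 and 2101 with IOX1 and 1975 and 2086 with MS023, and its partner Gclm was at 3646 and 4244 against 3432 and 4025. The difference was 0.01 for Gclc (95% interval -0.29 to 0.31) and 0.08 for Gclm (-0.17 to 0.33). Txnrd1, thioredoxin reductase, was at 14424 and 13845 against 13845 and 13342 (0.06, interval -0.27 to 0.39), and Gsr, glutathione reductase, at 7642 and 7368 against 8319 and 7776 (-0.10, interval -0.31 to 0.11). All 4 genes were above both NC libraries with both compounds. Srxn1, which repairs peroxiredoxins, was called against NC with MS023 and not with IOX1, at 2924 and 3721 and at 1862 and 2727 against 1216 and 1320, but its difference between the compounds did not pass (-0.55, adjusted p = 0.114).

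Hmox1 and Osgin1 were the list's called members with more RNA under MS023. Hmox1, the heme-degrading enzyme (chr8:75093621-75100589, plus strand), was at 1644 and 1638 with IOX1, 2838 and 3848 with MS023, and 1699 and 1685 in NC. The IOX1 libraries were at the NC level and both MS023 libraries were above all others in the series (-1.01, SE 0.13, adjusted p = 0.000484). Osgin1, an oxidative stress-induced growth inhibitor, was at 47 and 37 against 160 and 186, with NC at 19 and 12 (-2.02, adjusted p = 0.017). Sqstm1, the autophagy adaptor p62, and Gstp1, a glutathione transferase, were also higher with MS023 by the adjusted p, at 10935 and 7472 against 14713 and 19230 (-0.90, adjusted p = 0.00287) and at 7450 and 6721 against 10288 and 10910 (-0.58, adjusted p = 0.00049), under the fold of 2. Gstp1 shared 67.5% of its 31-base stretches with other genes.

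Ephx1 and Keap1 were called toward IOX1. Ephx1, an epoxide hydrolase, was at 1300 and 747 with IOX1, 482 and 392 with MS023, and 717 and 550 in NC (1.18, adjusted p = 0.00158). Its call was lost without the replicate block (adjusted p = 0.0976, limma). Keap1, which encodes the inhibitor of NRF2 and whose exons overlap Gm16754 on the opposite strand, was at 2084 and 2952 against 1241 and 1043, with NC at 1817 and 2165 (1.12, adjusted p = 0.000785). It was called in no comparison with NC. The 2 calls toward MS023 both fell away without IOX1 replicate 2, where Hmox1 was at -0.91 and Osgin1 had an adjusted p of 0.0857, and without MS023 replicate 2, with -0.86 and 0.126. Osgin1 was also at 0.0861 without IOX1 replicate 1, and Keap1 was under the fold of 2 without IOX1 replicate 2 (0.99) and without MS023 replicate 2 (0.84).

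Genes of the integrated stress response were among those higher with MS023. In the list of 40 response and amino acid genes, 5 were called higher with MS023 and none higher with IOX1 (12.5%, against 4.65% of all genes tested). The adjusted p alone was passed by 19, all toward MS023 (beside 7.32% of all genes tested), and 39 of the 40 differences were negative. The median difference was -0.55. Of the list, 2 members were called up in MS023 against NC (beside 1.16% of all genes tested) and none in IOX1 against NC (beside 0.452%). The count depended on single libraries: it was 11 without MS023 replicate 1, 2 without MS023 replicate 2, and 2 without IOX1 replicate 2.

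Cebpb, a C/EBP transcription factor (chr2:167688915-167690418, plus strand), was at 399 and 390 with IOX1, 1084 and 1448 with MS023, and 529 and 582 in NC. Both MS023 libraries were above every other library, of which the highest reached 987 (-1.66, SE 0.18, adjusted p = 0.000211). Ppp1r15a, the phosphatase subunit that ends the response, was at 2056 and 1717 against 3376 and 4325, with NC at 2210 and 2141 (-1.02, adjusted p = 0.000348). Atf3, a stress-induced repressor, was at 371 and 313 against 727 and 917, with NC at 581 and 516 (-1.26, adjusted p = 0.00607). Vldlr, a lipoprotein receptor, was at 347 and 309 against 795 and 981, with NC at 625 and 463 (-1.43, adjusted p = 0.00214). In the last 2 genes both IOX1 libraries were below NC and both MS023 libraries above it, although neither compound was called against NC.

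Ddit3, which encodes CHOP (chr10:127290774-127296288, plus strand), was at 1630 and 557 with IOX1, 3067 and 2930 with MS023, and 1761 and 846 in NC. The IOX1 libraries differed more widely than the NC libraries did, neither reached the MS023 range, and in both groups replicate 2 was the low one (-1.65, SE 0.47, adjusted p = 0.0337). Ddit3 lost its call without the replicate block (adjusted p = 0.341, limma). Its adjusted p was 0.0888 without IOX1 replicate 1, 0.177 without IOX1 replicate 2 and 0.279 without MS023 replicate 2, and its exons overlap Mars on the opposite strand, as those of Cebpb overlap Tmem189 and those of Ppp1r15a overlap Tulp2. Atf3 missed the threshold without IOX1 replicate 2 (0.0515) and without MS023 replicate 2 (0.0674), and Ppp1r15a was under the fold of 2 in the same fits (-0.87 and -0.83). Chac1, which degrades glutathione, was at 872 and 817 against 2006 and 2585 without passing (-1.43, SE 0.50, adjusted p = 0.0728). Atf4 itself was at 11808 and 9784 against 17952 and 16371 (-0.67, adjusted p = 0.0441), and Trib3, a pseudokinase of the same pathway, at 2933 and 2165 against 4876 and 5048 (-0.98, adjusted p = 0.0102), both under the fold of 2. Without the replicate block neither was under 0.05 (adjusted p = 0.288 for Atf4 and 0.0803 for Trib3, limma). Leaving out any 1 of the 4 libraries gave differences of -0.811 to -0.536 for Atf4 and -1.18 to -0.777 for Trib3.

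The binding element of the response, at which C/EBP and ATF proteins bind as a pair, is background to these genes. Its core, written TGATGNAA and searched on both strands, was found in 30.3% of the 33 list promoters in the RefSeq table (250 bases before to 50 after the start, GRCm38.p6), in 17 of 307 promoters of genes called higher with MS023 (5.54%), in 1 of 234 of those higher with IOX1 (0.427%), and in 2.6% of all 11823 promoters of tested genes. A match is a run of letters and not a shown binding site. Shown are the promoters of Atf3 (chr1:191183284-191183583, minus strand), Herpud1 (chr8:94386179-94386478, plus strand) and Chac1 (chr2:119350992-119351291, plus strand), each with 1 match, in capitals. Atf3 and Herpud1 were called higher with MS023, and Chac1 missed the threshold. They are a selection: 10 of the 33 list promoters hold the core, and Herpud1 is from the endoplasmic reticulum list below. In all 3 the match lies on the strand opposite to transcription, and no match to the other motifs searched (the E-box and TCCCGC, given with the germline genes, and the antioxidant response core TGACNNNGC, in 38.5% of 26 NRF2 target promoters and 14.1% of all) overlaps it.
Atf3: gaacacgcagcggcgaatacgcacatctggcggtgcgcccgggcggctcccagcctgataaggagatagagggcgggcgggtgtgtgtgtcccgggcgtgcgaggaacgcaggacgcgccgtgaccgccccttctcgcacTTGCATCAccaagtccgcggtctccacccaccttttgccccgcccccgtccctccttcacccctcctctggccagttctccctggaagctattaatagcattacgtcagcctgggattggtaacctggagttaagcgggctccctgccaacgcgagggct
Herpud1: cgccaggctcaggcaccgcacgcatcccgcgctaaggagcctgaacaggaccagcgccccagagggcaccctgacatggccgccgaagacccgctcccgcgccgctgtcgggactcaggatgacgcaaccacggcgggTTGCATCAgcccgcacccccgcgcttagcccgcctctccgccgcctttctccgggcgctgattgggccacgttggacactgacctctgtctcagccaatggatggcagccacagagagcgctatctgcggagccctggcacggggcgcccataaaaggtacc
Chac1: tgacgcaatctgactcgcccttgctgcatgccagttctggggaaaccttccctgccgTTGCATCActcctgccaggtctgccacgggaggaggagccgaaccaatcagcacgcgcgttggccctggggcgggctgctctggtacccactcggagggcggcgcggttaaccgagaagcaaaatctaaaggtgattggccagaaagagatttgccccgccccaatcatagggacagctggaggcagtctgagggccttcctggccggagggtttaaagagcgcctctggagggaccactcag

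Of 20 chaperone and quality-control genes of the endoplasmic reticulum, 2 were called higher with MS023 and none higher with IOX1 (10% against 4.65% of all genes tested), and the median difference was -0.30. Herpud1, part of the machinery that degrades misfolded proteins, was at 903 and 732 against 1738 and 1793, with NC at 1351 and 970 (-1.12, adjusted p = 0.00266). Derl3, a derlin of the same machinery, was at 137 and 189 against 409 and 289 (-1.09, adjusted p = 0.0284). Herpud1 was under the fold of 2 without MS023 replicate 2 (-0.96), and Derl3 missed the threshold without MS023 replicate 1 (0.239), IOX1 replicate 1 (0.148) or IOX1 replicate 2 (0.0923). Ero1l, the oxidase that makes disulfide bonds in the endoplasmic reticulum and a member of the hypoxia list, was at 2843 and 2160 against 6785 and 6847, with NC at 3547 and 2478 (-1.46, SE 0.13, adjusted p = 6.58e-05). Both its MS023 libraries lay above the 4089 that the other groups reached.

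**Figure D3:**
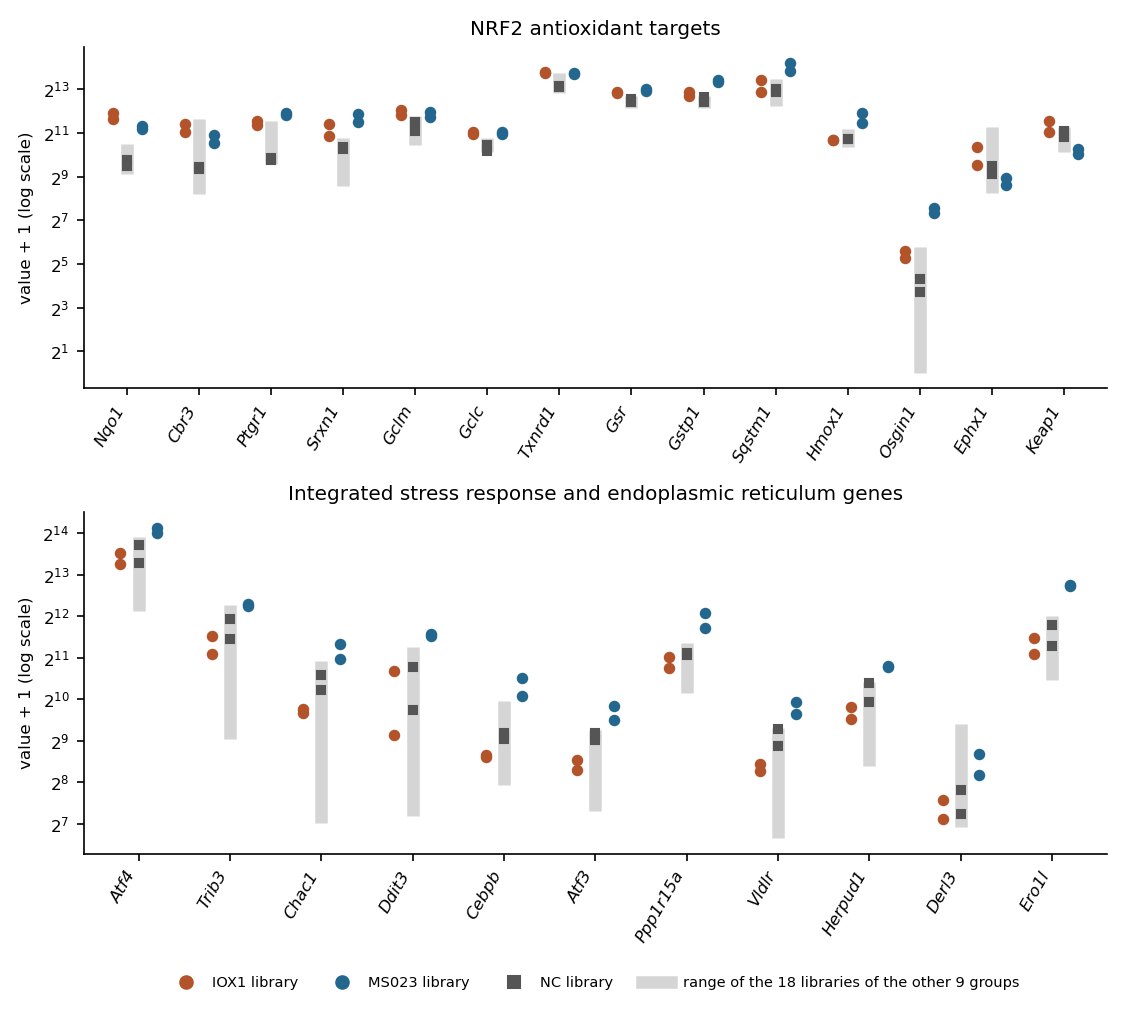
Values, plus 1 and on a log scale, of NRF2 target genes (top) and of genes of the integrated stress response and endoplasmic reticulum (bottom). Circles are the 2 libraries of IOX1 (brown) and MS023 (blue), squares the NC libraries and grey bars the span of the 18 libraries of the other 9 groups. Nqo1 is above its bar with both compounds, while Hmox1, Cebpb, Ppp1r15a and Ero1l are above it with MS023 alone.

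Germline genes of the piRNA pathway, meiosis and the primordial germ cell are known to be silenced in most cells by DNA methylation and by the complex PRC1.6, which E2F6 and the MGA/MAX pair bring to DNA, and ESCs transcribe some of them. Of the 24 listed, 8 were called higher with MS023 and none higher with IOX1 (33.3%, against 4.65% of all genes), 22 differences were negative, and the median was -0.54. Called against NC were 2 members up with MS023 (beside 1.16% of all genes tested) and 1 down with IOX1 (beside 0.805%). The count was 5 without IOX1 replicate 1 and 5 without the block.

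Taf7l, a testis form of a general transcription factor subunit (chrX:134460118-134476490, minus strand), was at 98 and 179 with IOX1, 423 and 639 with MS023, and 205 and 248 in NC (-1.96, SE 0.24, adjusted p = 0.000406). Piwil2, a Piwi protein that binds piRNAs, was at 159 and 220 against 432 and 623, with NC at 295 and 264 (-1.47, SE 0.16, adjusted p = 0.000211). In both genes the NC libraries lay between the compounds. Ddx4, the germ cell RNA helicase Vasa (chr13:112598333-112652475, minus strand), was at 269 and 323 against 593 and 705, with NC at 414 and 297 (-1.13, adjusted p = 0.00226), and both MS023 libraries were above the highest of the others, 496. Zcwpw1, a reader of histone methylation in meiosis, was at 553 and 609 against 1057 and 1502, with NC at 759 and 1088 (-1.12, adjusted p = 0.000634).

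Dazl, a germ cell RNA-binding protein, was at 4769 and 4123 with IOX1, 12119 and 8710 with MS023, and 6257 and 3591 in NC (-1.21, adjusted p = 0.00342). Another library of the series reached 14700. Mael, needed for transposon silencing in the testis, was at 140 and 177 against 311 and 424, with NC at 284 and 377, so that IOX1 was the low side (-1.20, adjusted p = 0.00458). Tdrd9, a piRNA pathway helicase, was at 118 and 113 against 293 and 287 (-1.32, adjusted p = 0.0207). Tuba3b, a testis alpha-tubulin that shared 42.9% of its 31-base stretches with other genes, was at 186 and 611 against 680 and 1052 (-1.32, adjusted p = 0.00965). Dazl, Mael and Tuba3b lost their calls without the replicate block (adjusted p = 0.143, 0.102 and 0.243, limma). Sycp3 of the synaptonemal complex was at 1622 and 1820 against 2391 and 2810 (-0.59, adjusted p = 0.00143) and Mov10l1, another piRNA helicase, at 425 and 503 against 882 and 861 (-0.91, adjusted p = 0.0118), both under the fold of 2. Tdrd9 missed the threshold without any 1 of the 4 libraries (0.0676 to 0.11), Tuba3b without IOX1 replicate 1 (0.116) or MS023 replicate 1 (0.0569), and Ddx4 was under the fold of 2 without IOX1 replicate 1 (-0.97) or MS023 replicate 2 (-0.98).

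The E-box CACGTG, which reads the same on both strands and is the sequence the MGA/MAX pair binds, was in 4 of the 7 called germline promoters held in the RefSeq table, in 11 of the 22 listed ones (50%), and in 9.82% of all 11823 promoters of tested genes. Among all genes called, 11.1% of 307 promoters higher with MS023 and 8.55% of 234 higher with IOX1 had it. The 4 promoters are shown with the E-box in capitals: Ddx4 (chr13:112652261-112652560, minus strand), Taf7l (chrX:134476441-134476740, minus strand), Mael (chr1:166238695-166238994, minus strand) and Tdrd9 (chr12:111971309-111971608, plus strand, with 2 matches). The letters TCCCGC, an E2F6-type motif searched on both strands, were in 59.1% of the 22 listed promoters, in 3 of the 7 called ones (42.9%), and in 34% of all, with 24.8% among genes called higher with MS023 and 29.5% among those higher with IOX1, and no such match overlaps an E-box of the 4.
Ddx4: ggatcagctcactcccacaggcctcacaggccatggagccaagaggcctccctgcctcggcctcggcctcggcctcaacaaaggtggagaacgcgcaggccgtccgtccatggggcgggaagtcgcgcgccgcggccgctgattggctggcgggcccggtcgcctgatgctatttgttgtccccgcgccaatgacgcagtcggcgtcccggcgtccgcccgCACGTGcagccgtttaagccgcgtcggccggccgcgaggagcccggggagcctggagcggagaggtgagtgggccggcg
Taf7l: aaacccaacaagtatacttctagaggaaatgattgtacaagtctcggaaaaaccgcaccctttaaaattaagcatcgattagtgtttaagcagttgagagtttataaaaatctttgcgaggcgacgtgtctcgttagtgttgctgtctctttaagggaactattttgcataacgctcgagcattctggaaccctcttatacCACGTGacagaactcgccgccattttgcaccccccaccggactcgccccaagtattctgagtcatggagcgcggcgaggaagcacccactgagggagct
Mael: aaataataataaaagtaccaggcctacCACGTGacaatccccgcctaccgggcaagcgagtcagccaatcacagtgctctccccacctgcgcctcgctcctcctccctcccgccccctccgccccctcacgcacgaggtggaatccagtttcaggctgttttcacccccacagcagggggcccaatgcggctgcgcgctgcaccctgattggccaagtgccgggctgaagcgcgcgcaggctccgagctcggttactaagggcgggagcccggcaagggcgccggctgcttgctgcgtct
Tdrd9: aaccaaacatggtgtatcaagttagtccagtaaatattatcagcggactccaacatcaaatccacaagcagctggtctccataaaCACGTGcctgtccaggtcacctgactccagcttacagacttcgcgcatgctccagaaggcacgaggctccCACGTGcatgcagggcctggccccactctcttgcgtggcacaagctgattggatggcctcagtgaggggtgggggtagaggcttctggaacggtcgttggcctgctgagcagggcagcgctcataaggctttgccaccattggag

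Clustered histone genes were among those higher with IOX1, and the compound away from NC was MS023. Against NC, 13 members were called down with MS023 (beside 1.64% of all genes tested) and 1 with IOX1 (beside 0.805%). No member was called up by IOX1. Messages of these genes normally end in a stem-loop without a poly(A) tail, so oligo-dT enriched libraries hold the polyadenylated minority. Of 62 in the table, 43 passed the filter on low values, and of those 12 were called higher with IOX1 and none higher with MS023 (27.9% of the 43, against 4.65% of all genes tested), with a median difference of 0.98. Hist1h3c, an H3 gene (chr13:23744973-23745602, minus strand), was at 52 and 108 with IOX1, 11 and 18 with MS023, and 128 and 179 in NC. The MS023 libraries were below the lowest of the other groups, 47 (2.33, SE 0.26, adjusted p = 0.000241). Hist1h2ag was at 30 and 47 against 4 and 5 (2.82, adjusted p = 0.00179), Hist1h2an at 44 and 28 against 2 and 4 (3.22, adjusted p = 0.00732), and Hist1h2bk at 33 and 49 against 14 and 5 (2.12, adjusted p = 0.00789).

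These are low values, and copies of the family share sequence: 55.2% of the 31-base stretches of Hist1h3c, 79.8% of Hist1h2ag, 89% of Hist1h2an and 75.3% of Hist1h2bk were also in other genes, so the division among copies is uncertain. Hist1h2an missed the threshold without IOX1 replicate 1 (adjusted p = 0.0914) or MS023 replicate 2 (0.0518), and Hist1h2bk without IOX1 replicate 2 (0.0645) or MS023 replicate 2 (0.0825, with a difference of 1.30). The 12 calls became 6 without either IOX1 library, 3 without MS023 replicate 2, and 4 without the block. The linker histone gene Hist1h1c was among the 12, and the other 11 were genes of the core histones.

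**Figure D4:**
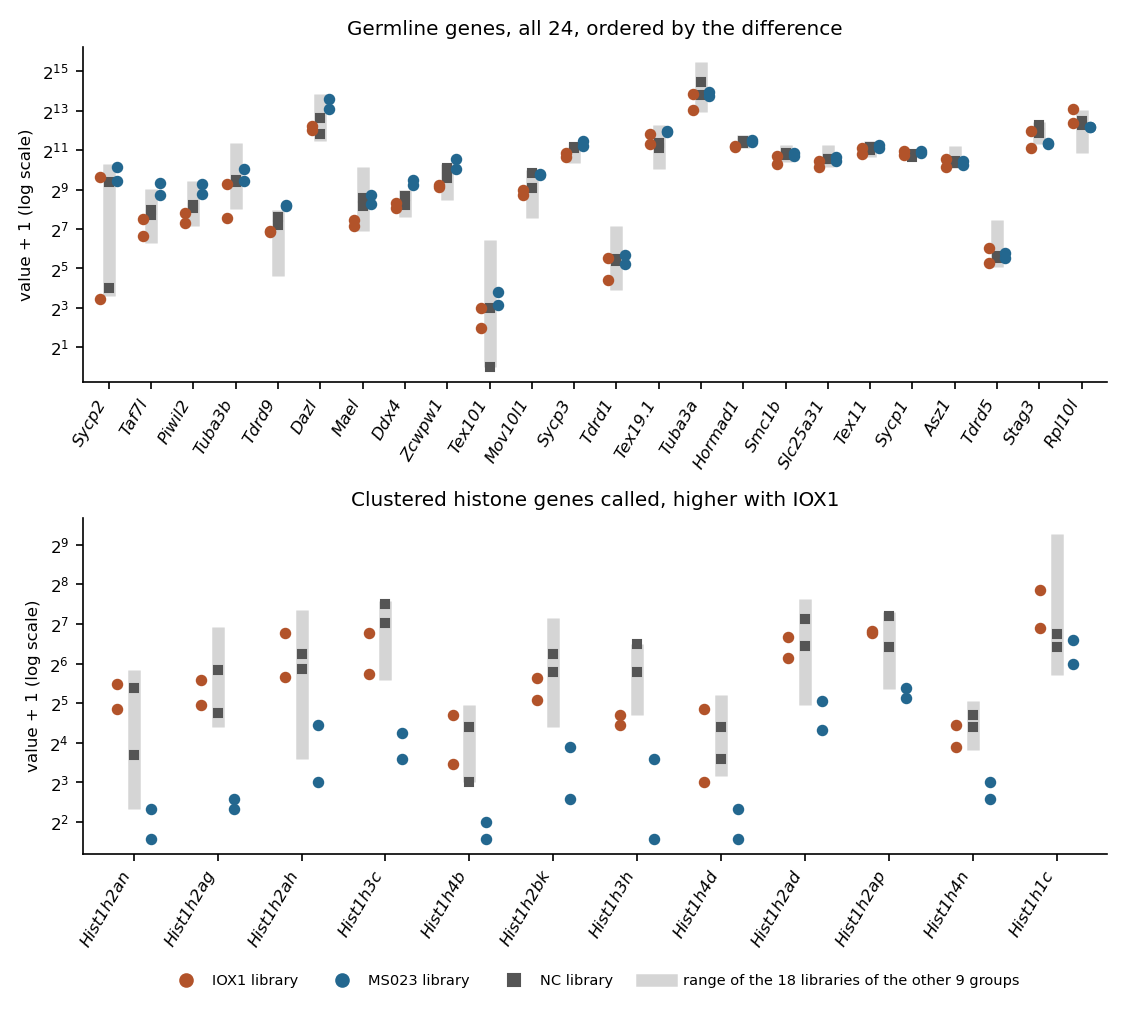
Values, plus 1 and on a log scale, of all 24 germline genes ordered by their difference (top) and of the 12 clustered histone genes called higher with IOX1 (bottom). Circles are the 2 libraries of IOX1 (brown) and MS023 (blue), squares the NC libraries and grey bars the span of the 18 libraries of the other 9 groups. The MS023 circles are the upper ones for the called germline genes and the lower ones for the histone genes.

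Of 31 hypoxia and glycolysis genes, 3 were called higher with MS023 and none higher with IOX1 (9.68% against 4.65% of all genes tested), 27 of the 31 differences were negative, and the median was -0.34. Pfkl, the liver-type phosphofructokinase (chr10:77986947-78010083, minus strand), was at 1613 and 2386 with IOX1, 4325 and 4926 with MS023, and 5866 and 4020 in NC, and both IOX1 libraries were below the lowest of the other groups, 2515 (-1.23, adjusted p = 0.0105). Aldoa, an aldolase, was at 25663 and 33724 against 53941 and 67675, with NC at 67675 and 49443 (-1.04, adjusted p = 0.021), and 34.2% of its 31-base stretches occurred in other genes. Ero1l, the third of the 3, was high with MS023 as given above. Vegfa, the angiogenic target of hypoxia-inducible factor, did not separate the compounds, at 4339 and 3822 against 5541 and 6247 (-0.53, adjusted p = 0.146). The adjusted p of Aldoa ran from 0.0859 to 0.106 when any 1 of the 4 libraries was left out, and Pfkl was at 0.108 without IOX1 replicate 1 and 0.0669 without MS023 replicate 2. The list's count was then 1 in each of those 2 fits.

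Collagen and matrix genes gave 4 calls higher with MS023 and none higher with IOX1 among 27 (14.8% against 4.65% of all genes tested, median -0.24). Tns1, an integrin-linked adhesion protein, was at 309 and 399 with IOX1, 861 and 1242 with MS023, and 1251 and 880 in NC, and it fell against NC with IOX1 (-1.56 between the compounds, adjusted p = 0.000634). Col1a1, the main fibrillar collagen, was low throughout, at 10 and 15 against 50 and 65 (-2.13, adjusted p = 0.000829), and Col6a1 was at 3 and 2 against 48 and 28 (-3.44, adjusted p = 0.024). Loxl2, a lysyl oxidase, was at 26 and 18 against 42 and 66, with NC at 103 and 61 (-1.24, adjusted p = 0.0269). Among 53 oxygenases that use 2-oxoglutarate, the enzyme family of IOX1's known targets, 1 gene was called (1.89%, against 4.65% of all genes tested). This was Plod1, a lysyl hydroxylase of collagen. It was at 727 and 565 against 1599 and 1480, with NC at 932 and 813 (-1.26, SE 0.15, adjusted p = 0.000393, limma). The calls of Col6a1 (0.0857 to 0.11) and of Loxl2 (0.0719, 0.157 and 0.245 without IOX1 replicate 1, IOX1 replicate 2 and MS023 replicate 2) did not hold in those fits, and the matrix count was 2 without IOX1 replicate 1, IOX1 replicate 2 or MS023 replicate 2 and 4 without MS023 replicate 1. The fibroblast markers are given above. In the longer fibroblast list 2 of 12 were called, both higher with MS023 (16.7%, against 4.65% of all genes tested). Of the 12 differences 5 were positive and 6 negative, with a median of -0.01 and a highest of 2.12. By the adjusted p alone, 1 member passed toward IOX1, beside 7.87% of all genes tested. The called ones were Col1a1 and Thy1, the latter at 7 and 12 against 19 and 31 (-1.31, adjusted p = 0.0418, limma). Thy1 lost its call when any 1 library was left out, with differences of -1.6 to -1.02.

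Early lineage genes gave 2 calls among 25 (8% against 4.65% of all genes tested), Pax6 and Lefty1, both higher with IOX1, with a median of 0.25. Lefty1, a Nodal antagonist, was at 974 and 1407 with IOX1, 495 and 330 with MS023, and 669 and 1001 in NC (1.53, adjusted p = 0.0263), but missed the threshold without MS023 replicate 2 (0.243), IOX1 replicate 1 (0.103) or IOX1 replicate 2 (0.122). Sox1, a marker of early neural cells, was at 411 and 388 against 230 and 246, with NC above both at 742 and 514 (0.75, adjusted p = 0.00311), under the fold of 2. No p53 target of 24 was called, while 21 of the 24 differences were positive with a median of 0.43. The adjusted p alone was passed by 8 of them (7 toward IOX1 and 1 toward MS023), beside 15.2% of all genes tested. Zmat3 was at 6108 and 5525 against 3057 and 3429 (0.84, adjusted p = 0.00382), Rrm2b, a ribonucleotide reductase subunit, at 1120 and 646 against 616 and 438 (0.71, adjusted p = 0.00958), and the cell cycle inhibitor Cdkn1a at 7622 and 7103 against 6024 and 6024 (0.29, SE 0.07, adjusted p = 0.0179).

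Among 14 genes of arginine methyltransferases and related proteins (Wdr77, Clns1a, Riok1, Tdrd3 and Smn1) none was called, with a median of -0.24. Prmt1, the main type I enzyme, was the member with an adjusted p under 0.05. It was at 9669 and 12545 with IOX1 and 12863 and 15350 with MS023 (-0.35, SE 0.08, adjusted p = 0.0119), with NC at 9790 and 12656. Without the replicate block the adjusted p of Prmt1 was 0.378 (limma). Leaving out any 1 of the 4 libraries gave differences of -0.41 to -0.293. Prmt6 was at 1101 and 2021 against 1602 and 2197 (-0.33, adjusted p = 0.0685), and Prmt5, a type II enzyme, at 5121 and 5076 against 6097 and 6471 (-0.30, adjusted p = 0.0654). Among 42 SR and hnRNP genes 1 was called, Taf15 (2.38%, against 4.65% of all genes tested). Taf15, an RNA-binding protein, was at 9095 and 10182 against 18326 and 21296, with NC at 12877 and 14700 (-1.04, adjusted p = 0.00158, limma). It fell just under the fold of 2 without MS023 replicate 2 (-0.997). Both MS023 libraries of Taf15 were above the 14700 that the other groups reached.

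In the methionine and polyamine list (23 genes), Cbs, which feeds homocysteine into cysteine synthesis, was called higher with IOX1 at 1834 and 932 against 809 and 516 (1.02, adjusted p = 0.00285; 0.75 and 0.93 without IOX1 replicate 1 and MS023 replicate 2), and Nnmt, which methylates nicotinamide, was called higher with MS023 at 29 and 113 against 168 and 199 (-1.65, adjusted p = 0.00815; 0.0975 and 0.0696 without IOX1 replicate 1 and MS023 replicate 1). Interferon response genes (17) also split, with Ifitm3 at 5136 and 4483 against 2642 and 2084 (1.03, adjusted p = 0.00757; 0.0577 and 0.0677 without IOX1 replicate 1 and MS023 replicate 2) and Oasl1 at 113 and 201 against 448 and 355 (-1.40, adjusted p = 0.00769; 0.0754 and 0.0746 without IOX1 replicate 1 and MS023 replicate 1). Immediate early genes (26) gave Atf3 and Maff, a small MAF protein, at 378 and 151 against 540 and 547 (-1.18, adjusted p = 0.0105; 0.103 and 0.118 without replicate 2 of IOX1 and of MS023). The called share was 8.7% of the methionine and polyamine list, 11.8% of the interferon list and 7.69% of the immediate early list. Over all genes tested it was 4.65%. Ndufa4l2 was the 1 call among 91 respiratory chain and ATP synthase genes, assembly factors included (1.1%), whose median was 0.19. Of the 91 differences 71 were positive. The adjusted p alone was passed by 18 genes (beside 15.2% of all genes tested), 17 of them toward IOX1 and under the fold of 2.

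Other lists held no call by limma: 24 pluripotency genes (median 0.17), 19 metallothionein, zinc and iron genes (0.04), 22 heat shock genes (0.07), 18 genes of the 2-cell stage (0.29), 23 cholesterol genes (-0.27), 31 replication genes (0.04), 27 mitosis genes (0.18), 28 lysosome genes (-0.31) and 83 ribosomal protein genes (0.06). The adjusted p alone was passed by 2 pluripotency, 1 metallothionein, zinc and iron, 7 cholesterol, 2 replication, 2 mitosis, 8 lysosome and 4 ribosomal protein genes, and by no heat shock or 2-cell gene. Over all genes tested, 15.2% passed it. Toward MS023, the lysosome list had 4 calls without MS023 replicate 1 and 2 without IOX1 replicate 1. Lss, which closes the sterol ring in cholesterol synthesis, was at 2322 and 2717 with IOX1 and 3317 and 3492 with MS023 (-0.44, adjusted p = 0.00731). The zinc-binding metallothioneins were at 13304 and 12098 against 10469 and 7868 for Mt1 (0.48, adjusted p = 0.121) and at 20251 and 16371 against 14970 and 10004 for Mt2 (0.57, adjusted p = 0.187). The heat shock gene Hspa1b was at 523 and 674 against 621 and 597 (-0.04, SE 0.16, adjusted p = 0.92), and the iron-uptake receptor gene Tfrc at 12129 and 17988 against 21314 and 20744 (-0.51, adjusted p = 0.201).

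**Figure D5:**
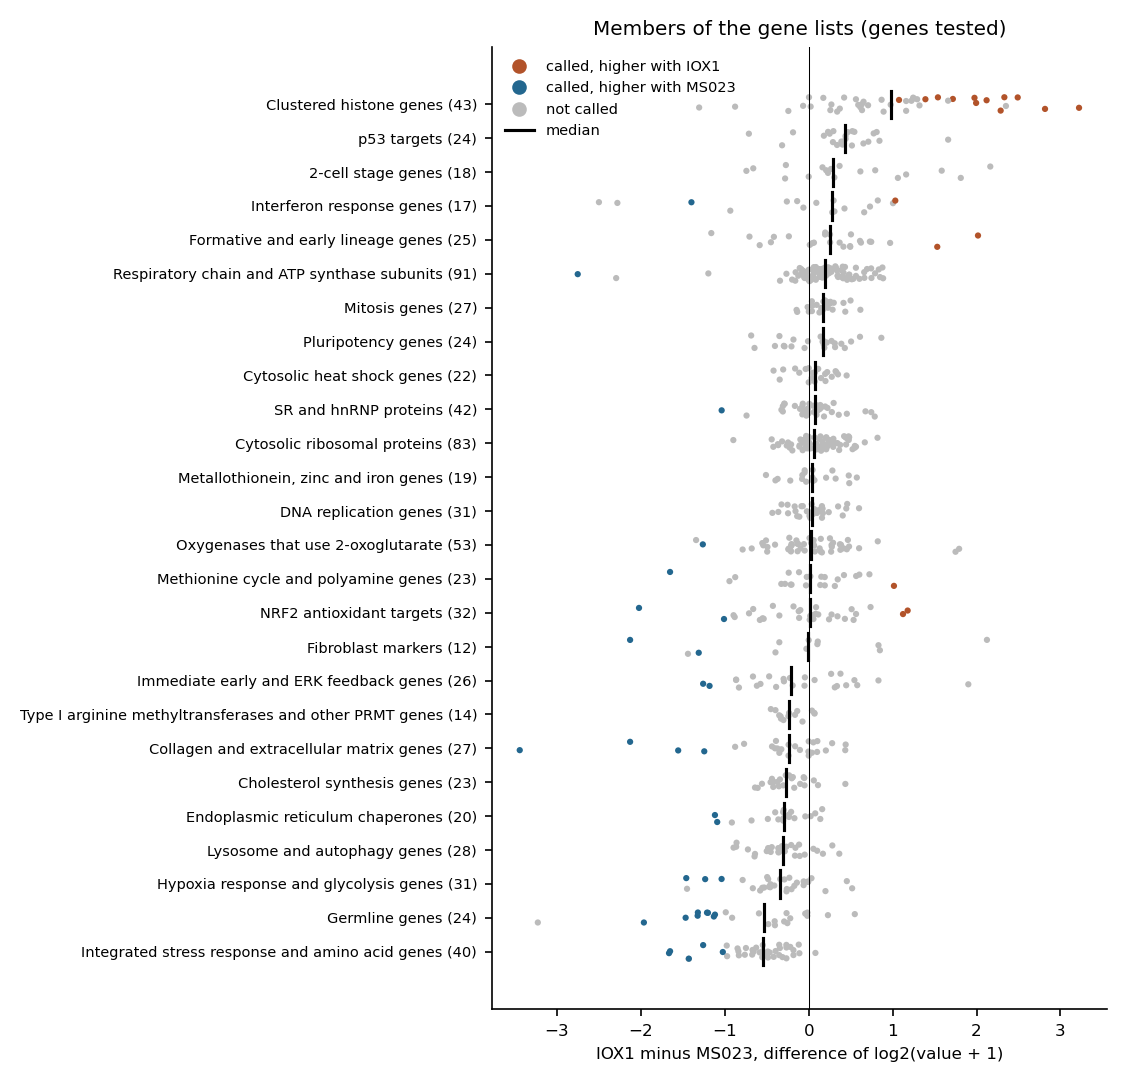
Difference between IOX1 and MS023, on the log2(value + 1) scale, of the tested members of 26 gene lists, with 1 point per gene, the number tested in parentheses and the median as a black bar; brown points are called higher with IOX1, blue points called higher with MS023. The lists run from the integrated stress response (median -0.55) at the bottom to the clustered histone genes (0.98) at the top.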

How the data were processed

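RNA-seq was performed on E14 ESCs, with oligo-dT enrichment, in 22 libraries of 11 groups. Per the labels, reads were demultiplexed with bcl2fastq, aligned to mm10 with Bowtie2 2.2.5 and quantified with RSEM. The authors deposited read counts after full quantile normalisation, rounded to whole numbers. These deposited values are treated as scores and not as raw counts, since every library has the same distribution and its depth cannot be recovered. Their table of group means was not used. The study's methods do not describe the compound treatments.

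The 17275 of 18487 genes that reached 10 in 2 or more libraries were tested with limma 3.58.1 in R 4.3.3 on log2(value + 1), with a trend in the variance moderation, 11 group means and the replicate number as a block with 10 residual degrees of freedom, and Benjamini-Hochberg adjustment covered all genes tested. The test was checked on simulated data. The members and the gene lists were chosen with earlier results of these data known. Named are the 12 largest calls per direction above 0 in all libraries, with a mean of at least 100 in the higher compound, without overlap and without predicted or receptor-family symbols; up to 4 called members per list, or 2 by p where none was called; a fixed set (Nqo1, Hmox1, Srxn1, Txnrd1, Gclm, Slc7a11, Mt1, Mt2, Tfrc, Hspa1b, Ddit3, Trib3, Vegfa, Cdkn1a, Prmt1 and Prmt6); and calls on opposite sides of NC. Cbr3, Ptgr1, Gsr, Gclc, Sqstm1, Gstp1, Atf4, Chac1, Dazl, Mael, Tdrd9, Tuba3b, Sycp3, Mov10l1, Sox1 and Hist1h1c were added after their values were seen, as were the RNAs looked at for RNA quality. Some genes that this rule selects are not reported here. Positions, overlaps and shared 31-base stretches are from GENCODE M21 (mm10), which held 16795 of the genes tested, and promoters are from RefSeq. Alternatives were the block, the libraries in the fit, the pseudocount, the filter, a median-ratio rescaling, the trend, and leaving out each library.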

Additional observations from a re-analysis of the deposited data

Results flagged for a closer look

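In 7 genes the compounds lay on opposite sides of NC: each was called between IOX1 and MS023 and, against NC, in opposite directions by limma. The differences between the compounds, IOX1 minus MS023 on the log2(value + 1) scale, were -4.55 for Spata31d1b (2 and 2 with IOX1, 74 and 65 with MS023, 12 and 15 in NC), -4.24 for Car6, -3.94 for Tuba8, -3.62 for Adad2, -2.52 for Slc2a7, a sugar transporter (23 and 33, 182 and 146, 99 and 63 in NC), -2.10 for Cdc42ep1, a CDC42 effector (165 and 133, 714 and 574, 313 and 323), and 2.26 for Angptl2, a secreted angiopoietin-like protein (109 and 74, 23 and 14, 64 and 27). Of the 7, 6 were higher with MS023 and 1, Angptl2, was higher with IOX1. Angptl2 missed the threshold between the compounds without the replicate block (adjusted p = 0.0508, limma). Spata31d1b belongs to a testis gene family and has 29.1% of its 31-base stretches in common with other transcripts. Exons of Cdc42ep1 overlap Lgals2 on the opposite strand.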

How the results depend on the processing

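The 804 calls became 369 without the replicate block (173 higher with IOX1 and 196 with MS023), all of them among the 804, and 13 (8 and 5) with the 4 libraries and no block, 10 (7 and 3) with the 6 libraries of IOX1, MS023 and NC, and 0 in either direction with the 4 libraries and the block. Leaving out 1 of the 4 libraries gave 466 to 717 calls, 218 to 353 higher with IOX1 and 239 to 364 higher with MS023; the compound left with 1 library is then assumed to vary like the other groups. A pseudocount of 10 (711), no filter (807), only genes above 0 in all libraries (787), a median-ratio rescaling (807) and no trend (801) kept the count within 1.5 times. Deviations of libraries with the same replicate number correlated weakly, and in the positive direction for every pair of groups. The correlation across genes was 0.243 for IOX1 and MS023. Over 55 pairs of groups it ran from 0.0535 to 0.298, with 51 above 0.1. Whether a number marks a shared batch was not tested. Of 67 named called genes, 42 kept their call without the block and 41 to 54 without 1 library, while 0 kept it with the 4 or 6 libraries alone. None changed direction. Among the uncalled genes named by the rule for named genes, the difference changed sign without 1 library in Gclm (-0.0348 to 0.198, and -0.0289 without MS023 replicate 2), Hspa1b (-0.17 to 0.10), BC061212 (-0.30 to 3.93) and Zscan4f (-0.39 to 4.72), as it did for Malat1 (-0.55 to 1.08). Depth cannot be read from these values, and genes near 0 have the widest errors.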
